A study of Homo sapiens with 5 samples.

Results

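The 10 genes described here encode inflammatory cytokines, chemokines and leukocyte adhesion molecules, and a shared cytokine receptor, of WI-38 cells, a line of human diploid lung fibroblasts. They were chosen by name, as CCL2, CXCL12, CXCL1, CSF1, IL6, LIF, IL11, IL6ST, ICAM1 and VCAM1, out of 44257 genes with an annotated transcript in the tables. Total RNA was sequenced in 5 libraries, 1 per group. Passage is counted in population doublings (PDL). The late-passage group was at PDL 55, 3 groups at PDL 15 had been transfected with AUF1 siRNA, HuR siRNA or control siRNA, and the last group, also at PDL 15, has no siRNA in its labels. No stimulus was named for any group, and WI-38 is a single line, so all groups share 1 genetic background. Levels are FPKM, a fragment count corrected for transcript length and library size, summed over the annotated transcripts of a gene. Ranges in parentheses after a level are summed 95% bounds of the deposited estimates, which describe 1 library and not the spread between cultures. With 1 library a group, no difference has a replicate check and none was tested.

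Chemokines such as CCL2 and CXCL1 draw leukocytes into tissue. The cytokines IL6, LIF and IL11 each bind a further receptor chain and signal through a common partner, gp130, the product of IL6ST. ICAM1 and VCAM1 on the cell surface hold leukocytes through their integrins. Transcription of many of these genes responds to NF-kB, and many of their mRNAs carry AU-rich elements in the 3′ UTR, the class of sequence that AUF1 and HuR bind. Fibroblasts that stop dividing are known for secreting several of these factors, as part of the senescence-associated secretory phenotype.

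CCL2 was the gene with the highest level at PDL 55, apart from IL6ST, and with the widest range over the 5 libraries, 44.2-fold from lowest to highest. It stood at 90.3 FPKM at PDL 55 and 15.2 FPKM at PDL 15, and at 2.04 FPKM with AUF1 siRNA and 11.3 FPKM with control siRNA. CXCL12, ICAM1 and VCAM1 went the other way at PDL 55, at 0.0429, 0.0879 and 0.136 times their PDL 15 levels. IL6 was at most 3.81 FPKM and LIF at most 2.02 FPKM on annotated transcripts, and CXCL1 stayed under 1 FPKM in each. CSF1 was listed at 0 on annotated transcripts, but transcripts assembled at its locus gave it 6.36 to 12.9 FPKM.

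A level of 1 FPKM was taken as the lower limit for ratios. CXCL1 and CSF1 were under 1 FPKM in all 5 libraries on annotated transcripts, VCAM1 in 4, IL11 in 3, IL6 and LIF in 2, and CXCL12 and ICAM1 in 1. CCL2 and IL6ST were at or over 1 FPKM everywhere. By library, 5 of the 10 genes were under 1 FPKM at PDL 55, 6 with AUF1 siRNA, 4 with HuR siRNA, 5 with control siRNA and 3 at PDL 15. The mean over the 5 libraries reached 1 FPKM for 7 of the 10 genes, so IL11, CXCL1 and CSF1 have levels below but enter no count. VCAM1 reached it through PDL 15 alone (3.97 FPKM), so calls of VCAM1 as lower than PDL 15 are favoured by the filter. LIF, with a mean of 1.08 FPKM, was highest with control siRNA (2.02 FPKM), and the same holds for its calls against that library.

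The libraries were unlike in depth. Coverage per unit of FPKM, which scales with depth, was 0.300 in the control siRNA library and 1.14 to 1.29 in the other 4, so a low level in that library rests on few reads. The siRNA targets were checked first. HNRNPD, the AUF1 gene, was at 20.3 FPKM with AUF1 siRNA and 61.2 FPKM with control siRNA. ELAVL1, the HuR gene, was at 9.72 FPKM with HuR siRNA and 11.8 FPKM with control siRNA, a small difference, so the HuR siRNA library is named by its label. HNRNPD was also at 42.3 FPKM at PDL 55 and 119 FPKM at PDL 15. Fibroblast markers summed to 1427 to 9140 FPKM, with 0 to 3 of the 10 listed at 0 in a library. Those at 0 with control siRNA were VIM, PDGFRA and PDGFRB, where the estimates of VIM and PDGFRA had failed. Leukocyte markers summed to 22.9 to 40.1 FPKM, mostly CSF1R and CD68, with TYROBP at 0 throughout. Endothelial markers summed to 4.71 to 14.6 FPKM and epithelial markers to 4.67 to 16.8 FPKM. In bulk RNA, fewer cells expressing a gene and less RNA per cell cannot be told apart.

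**Figure D1:**
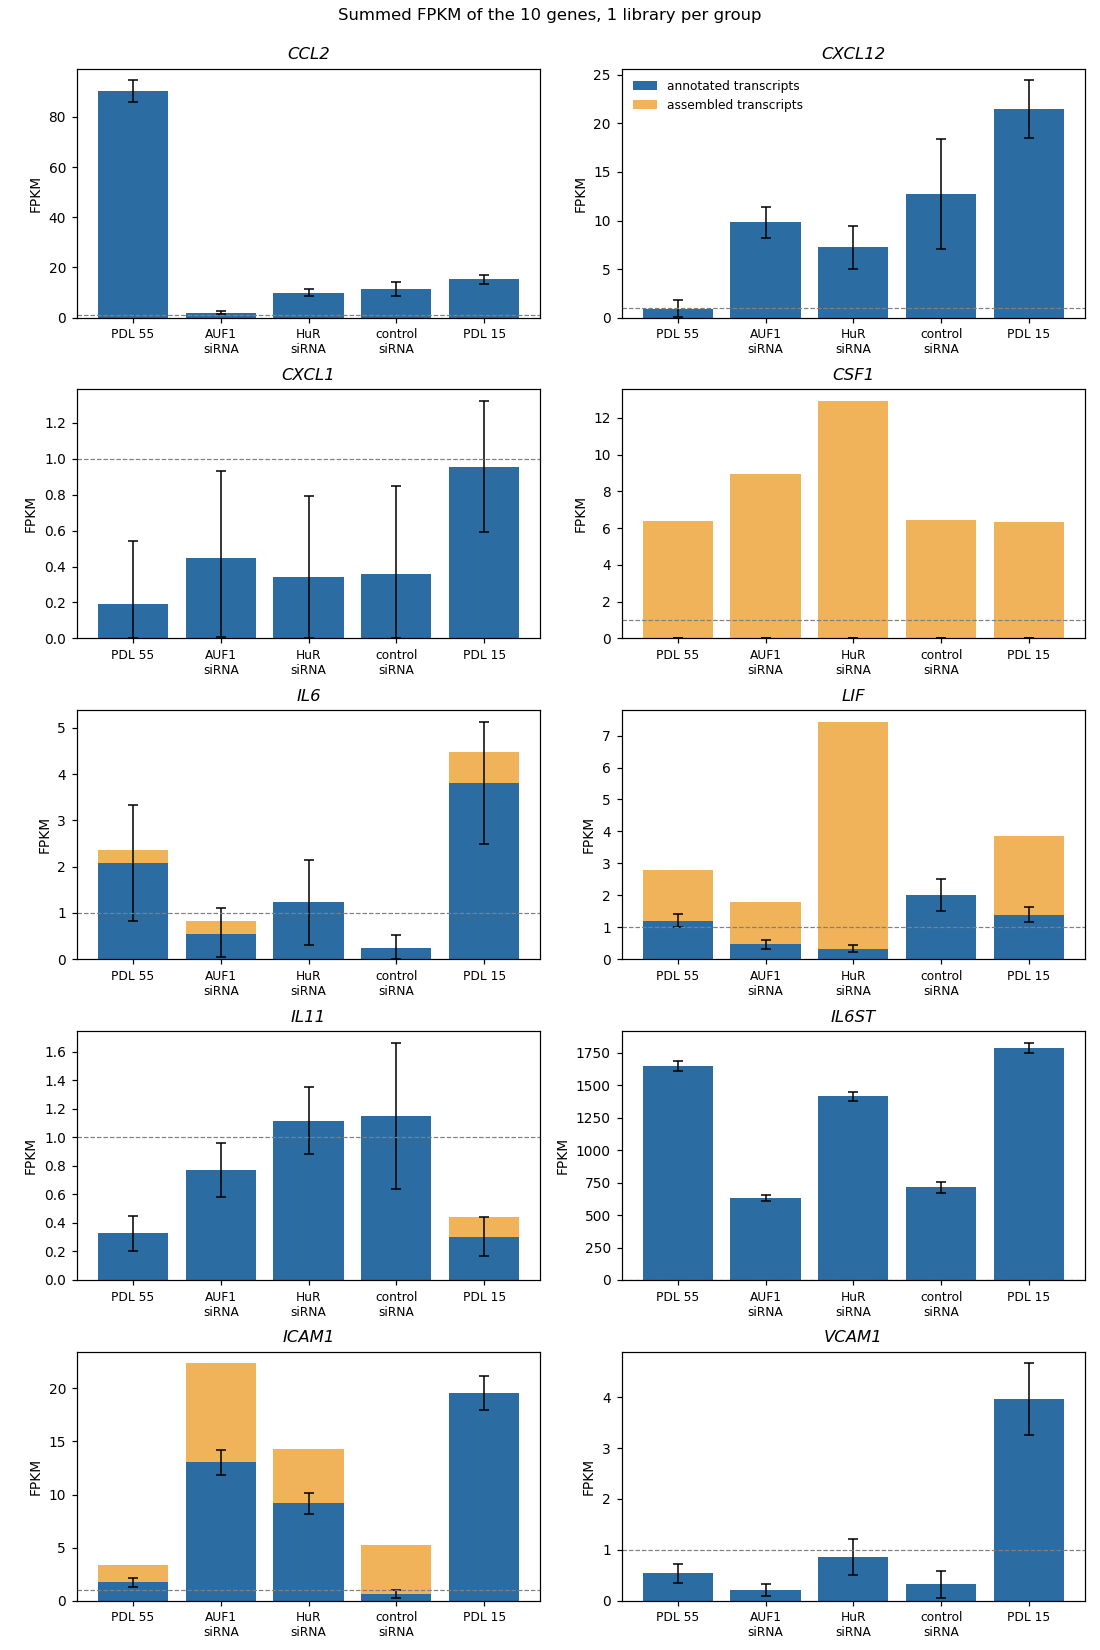
FPKM of each of the 10 genes in the 5 libraries. Blue bars are sums over annotated transcripts with their deposited 95% bounds, orange bars are assembled transcripts at the same gene, and the dashed line marks 1 FPKM. CCL2 is at 90.3 FPKM at PDL 55 and 2.04 FPKM with AUF1 siRNA, and the CSF1 bars are wholly assembled transcripts.

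AU-rich sequences, the class that AUF1 and HuR bind, are shown first, since the AUF1 and HuR siRNAs bear on them. In the annotated transcript with the longest 3′ UTR (GENCODE 29, counted from the stop codon), all 10 genes held the pentamer ATTTA, from 1 copy in the 376 nt of CCL2 to 26 copies in the 7641 nt of IL6ST. Of 10340 protein-coding genes with a mean of at least 1 FPKM, 74.7% held it at least once, with a median of 2 copies and 2.37 copies per 1000 nt of 3′ UTR. Per base, CXCL12, CSF1, ICAM1 and LIF held fewer copies than that, and the other members more. The transcript with the longest 3′ UTR was not always a measured one, as those of IL6ST (ENST00000381287) and VCAM1 (ENST00000347652) were at 0 in all libraries. The longer nonamer TTATTTATT, which contains the pentamer, was in 3 of the 10 genes, with 6 copies in IL11, 3 in CXCL1 and 2 in LIF. It was in 9.63% of the 10340 genes, a set that IL11, CXCL1 and CSF1 are too low to enter. Of the 7 members with a mean of at least 1 FPKM, LIF alone held it. Only the transcript strand was searched, and overlapping matches were counted. For IL11, CXCL1, LIF, IL6, CCL2, ICAM1 and VCAM1 the 30 bases richest in the pentamer are given, in GRCh38 coordinates, with each ATTTA in capitals.
IL11 3′ UTR site, chr19:55365943-55365972, - strand: ccagatcttATTTATTTATTTAtttcagta
CXCL1 3′ UTR site, chr4:73870673-73870702, + strand: aagtcttctATTTATTTATTTAttcattag
LIF 3′ UTR site, chr22:30240522-30240551, - strand: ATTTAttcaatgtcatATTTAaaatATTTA
IL6 3′ UTR site, chr7:22731704-22731733, + strand: tatttttaATTTAttaatATTTAaatatgt
CCL2 3′ UTR site, chr17:34256950-34256979, + strand: aatgttaattcttATTTAagttattgatgt
ICAM1 3′ UTR site, chr19:10285775-10285804, + strand: cttgatgatatgtATTTAttcatttgttat
VCAM1 3′ UTR site, chr1:100738302-100738331, + strand: aactggagacactATTTAtctgtgcaaatc
IL11 and CXCL1 carry the pentamer in tandem, and both were at most 1.15 FPKM in every library. CCL2, which had the lowest ratio of AUF1 siRNA to control siRNA among the 10 genes, has a single copy. A match is a string of letters and not a measured binding site.

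CCL2 (ENSG00000108691, hg19 chromosome 17, 32582313 to 32584222) encodes MCP-1, the main attractant of monocytes. It has 1 annotated transcript of 732 nt in the tables, with status OK in all libraries and no assembled transcript beside it. It stood at 90.3 FPKM at PDL 55 (86.1 to 94.5), 2.04 with AUF1 siRNA (1.40 to 2.69), 9.99 with HuR siRNA (8.49 to 11.5), 11.3 with control siRNA (8.64 to 14.0) and 15.2 at PDL 15 (13.5 to 17.0). The PDL 55 library is far above the rest and the AUF1 siRNA library far below, with the other 3 close together. The PDL 55 level was 5.92 times that at PDL 15, a log2 ratio of 2.80 relative to the median gene. With AUF1 siRNA it was 0.180 times the control siRNA level, a log2 ratio of -2.20. Against PDL 15 in place of control siRNA the AUF1 siRNA ratio was -2.22, and against control siRNA in place of PDL 15 the PDL 55 ratio was 2.85. HuR siRNA and control siRNA had overlapping bounds, and their ratio was -0.46. CCL2 was also lower with AUF1 siRNA than with HuR siRNA, at -1.74. The CCL2 level with AUF1 siRNA rests on 1869 aligned bases (coverage times length) and that with control siRNA on 2489.

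CXCL12 (ENSG00000107562, hg19 chromosome 10, 44793038 to 44881941) encodes SDF-1, a chemokine that fibroblasts make without stimulation and that retains leukocytes and stem cells in tissue. It stood at 0.920 FPKM at PDL 55 (0.0975 to 1.87), 9.82 with AUF1 siRNA (8.22 to 11.4), 7.26 with HuR siRNA (5.04 to 9.49), 12.7 with control siRNA (7.09 to 18.4) and 21.5 at PDL 15 (18.5 to 24.4). All 4 libraries at PDL 15 lie above the PDL 55 library with no overlap of bounds. The log2 ratio of PDL 55 to PDL 15 relative to the median gene was -3.24, and -2.87 with control siRNA as the reference. The AUF1 siRNA and HuR siRNA libraries overlap the control siRNA library within their bounds. HuR siRNA against control siRNA was at -1.03, just past 2-fold, but at -0.73 on the deposited scaling. Of its 8 annotated transcripts, ENST00000395795 (618 nt) held 79.3% of the sum at PDL 15 and 92.0% with AUF1 siRNA. In the control siRNA library it held 32.1%, and ENST00000374426 (470 nt) held 62.9%. CXCR4, its main receptor, was listed at 0 in all libraries, and ACKR3, its scavenging receptor, was at 1.24 FPKM at PDL 55 and 0 at PDL 15.

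CXCL1 (ENSG00000163739, hg19 chromosome 4, 74735110 to 74736959), which attracts neutrophils, was under 1 FPKM in each library. It was at 0.190 FPKM at PDL 55 (0 to 0.542), 0.446 with AUF1 siRNA (0.0100 to 0.932), 0.342 with HuR siRNA (0 to 0.790), 0.358 with control siRNA (0 to 0.848) and 0.956 at PDL 15 (0.592 to 1.32). The lowest value was at PDL 55 and the highest at PDL 15, and their bounds did not overlap. These levels rest on 118 to 1322 aligned bases, so a difference between the siRNA libraries was not detectable at this depth. The other chemokines on the lists were no higher. All 10 other CXC chemokines and all 7 other CC chemokines in the tables stayed under 1 FPKM in every library, with CXCL6 (0.721) and CCL26 (0.689) reaching the most. CXCL8, interleukin 8, was at 0 FPKM at PDL 55 and 0.482 FPKM at PDL 15. Among the listed chemokines, CCL2 and CXCL12 alone passed 1 FPKM in any library on annotated transcripts.

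**Figure D2:**
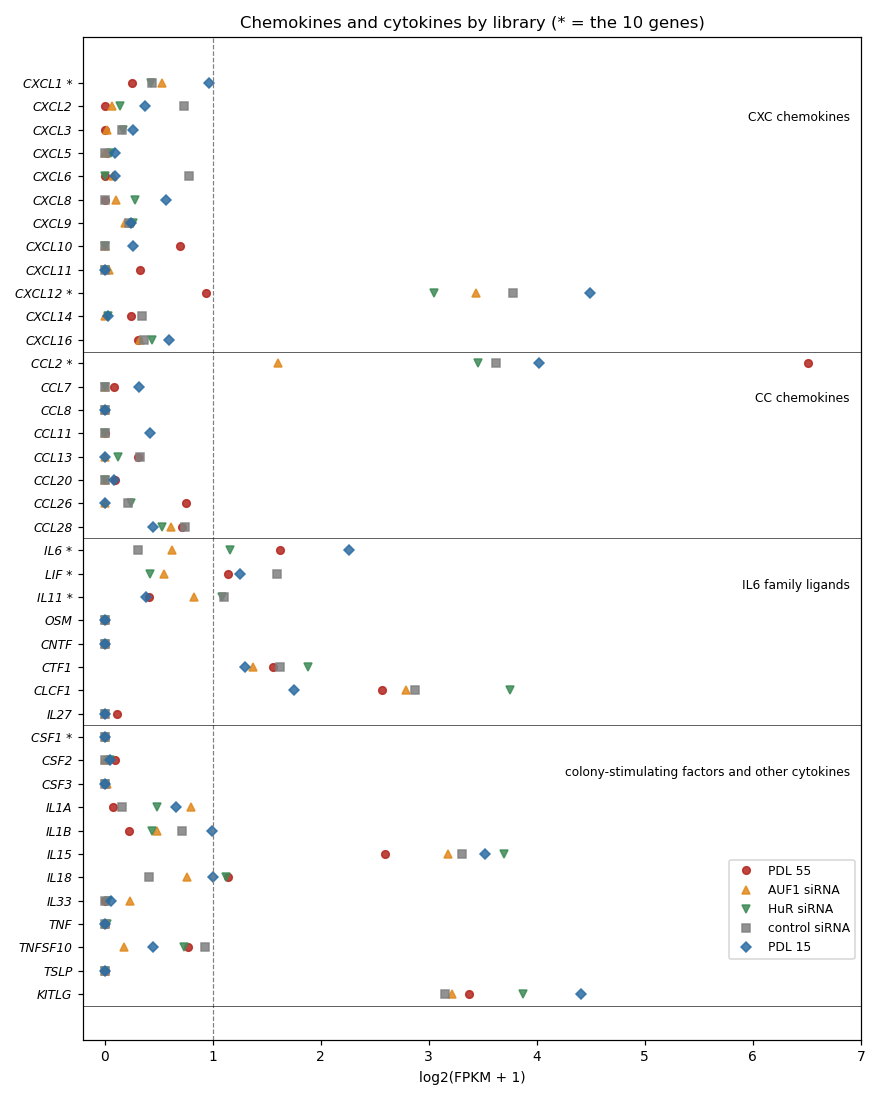
Levels of chemokines and cytokines on the fixed lists, as log2(FPKM + 1), with 1 symbol per library and the dashed line at 1 FPKM. CCL2 and CXCL12 stand clear of the other chemokines, and CLCF1, CTF1, IL15 and KITLG are the other ligands over 1 FPKM in all libraries.

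CSF1 (ENSG00000184371, hg19 chromosome 1, 110452864 to 110473614) encodes the macrophage colony-stimulating factor. All of its 10 annotated transcripts were listed at 0 in all 5 libraries. Transcripts assembled at the locus, of 3164 to 3707 nt, held 6.36 FPKM at PDL 55 (5.94 to 6.79), 8.95 with AUF1 siRNA (8.45 to 9.45), 12.9 with HuR siRNA (12.3 to 13.5), 6.44 with control siRNA (5.50 to 7.38) and 6.36 at PDL 15 (5.71 to 7.01). The zeros of the annotated rows therefore do not describe the locus. On assembled transcripts the PDL 55 and PDL 15 libraries were level, and the HuR siRNA library was highest, at 2.00 times the control siRNA level, or 0.60 as a log2 ratio relative to the median gene. CSF1R, its receptor, was listed at 20.9 FPKM at PDL 55, 16.5 with AUF1 siRNA, 21.8 with HuR siRNA, 14.4 with control siRNA and 29.02 at PDL 15.

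IL6 (ENSG00000136244, hg19 chromosome 7, 22765503 to 22771621), the founding cytokine of its family, was low throughout. It was at 2.08 FPKM at PDL 55 (0.823 to 3.34), 0.536 with AUF1 siRNA (0.0451 to 1.10), 1.23 with HuR siRNA (0.307 to 2.15), 0.239 with control siRNA (0 to 0.515) and 3.81 at PDL 15 (2.49 to 5.13). PDL 15 was the highest library and control siRNA the lowest, and the bounds of PDL 55 and PDL 15 overlapped. The log2 ratio of PDL 55 to PDL 15 relative to the median gene was -0.33. That of control siRNA to PDL 15 was -1.55, and the control siRNA value rests on 110 aligned bases. AUF1 siRNA and HuR siRNA both overlapped control siRNA, with ratios of 0.13 for AUF1 siRNA and 0.55 for HuR siRNA. Most of the PDL 15 sum, 72.7%, was in ENST00000401630, with status LOWDATA there, and without rows of a status other than OK the PDL 15 level was 0. For IL6 the deposited estimate is thus uncertain in itself.

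LIF (ENSG00000128342, hg19 chromosome 22, 30636436 to 30642840) encodes leukemia inhibitory factor. On its annotated transcript it was at 1.21 FPKM at PDL 55 (0.9998 to 1.41), 0.467 with AUF1 siRNA (0.323 to 0.612), 0.333 with HuR siRNA (0.224 to 0.442), 2.02 with control siRNA (1.52 to 2.52) and 1.39 at PDL 15 (1.16 to 1.62). The AUF1 siRNA and HuR siRNA libraries were below the rest, and their log2 ratios to control siRNA relative to the median gene were -1.22 for AUF1 siRNA and -1.47 for HuR siRNA. Assembled transcripts at the gene added 1.59 FPKM at PDL 55, 1.32 with AUF1 siRNA, 7.09 with HuR siRNA, 0 with control siRNA and 2.46 at PDL 15. With them the HuR siRNA library became the highest, at 7.43 FPKM, and the control siRNA library had 2.02 FPKM. The HuR siRNA ratio then turned to 1.18 and the AUF1 siRNA ratio to -0.30. The direction for LIF under HuR siRNA therefore hangs on which transcripts are counted.

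IL11 (ENSG00000095752, hg19 chromosome 19, 55875757 to 55881814), a gp130 cytokine known for its role in fibroblast activation, was at 0.328 FPKM at PDL 55 (0.206 to 0.450), 0.770 with AUF1 siRNA (0.581 to 0.960), 1.12 with HuR siRNA (0.882 to 1.35), 1.15 with control siRNA (0.637 to 1.66) and 0.304 at PDL 15 (0.170 to 0.438). The 3 transfected libraries were above both untransfected ones, and on annotated transcripts the bounds did not overlap between these sets. An assembled transcript added 0.140 FPKM (0.0319 to 0.248) at PDL 15, which makes 0.444 FPKM. With its bounds added, the PDL 15 range overlaps those of AUF1 siRNA and control siRNA. Among the transfected libraries the bounds overlapped. IL11 is low enough that no ratio is counted.

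IL6ST (ENSG00000134352, hg19 chromosome 5, 55230923 to 55290772) encodes gp130. Its summed level was 1651 FPKM at PDL 55 (1612 to 1689), 631 with AUF1 siRNA (607 to 654), 1415 with HuR siRNA (1379 to 1451), 713 with control siRNA (668 to 759) and 1791 at PDL 15 (1752 to 1829). Of this sum, 96.7% to 97.6% lay in 1 row, ENST00000381286, which is 201 nt long. FPKM is unreliable for transcripts no longer than a sequenced fragment, so the long transcripts were read apart. Transcripts of 300 nt and over summed to 50.3 FPKM at PDL 55, 19.5 with AUF1 siRNA, 33.6 with HuR siRNA, 23.3 with control siRNA and 52.9 at PDL 15. PDL 55 and PDL 15 were close on both readings, with log2 ratios relative to the median gene of 0.19 on all rows and 0.24 on long ones. The AUF1 siRNA and control siRNA libraries were the lowest on both. AUF1 siRNA against HuR siRNA was at -1.06 on all rows and -0.64 on long ones, so the 2-fold difference was lost. At PDL 55 the long level was split between ENST00000381298 (28.3 FPKM) and ENST00000381294 (22.0 FPKM), and ENST00000381294 was at 0 in the other 4 libraries. A separate row inside the locus, ENST00000447197 (474 nt, positions 55240484 to 55240957), was at 588 FPKM at PDL 55, 185 with AUF1 siRNA, 671 with HuR siRNA, 290 with control siRNA and 630 at PDL 15, and is not part of the sum.

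**Figure D3:**
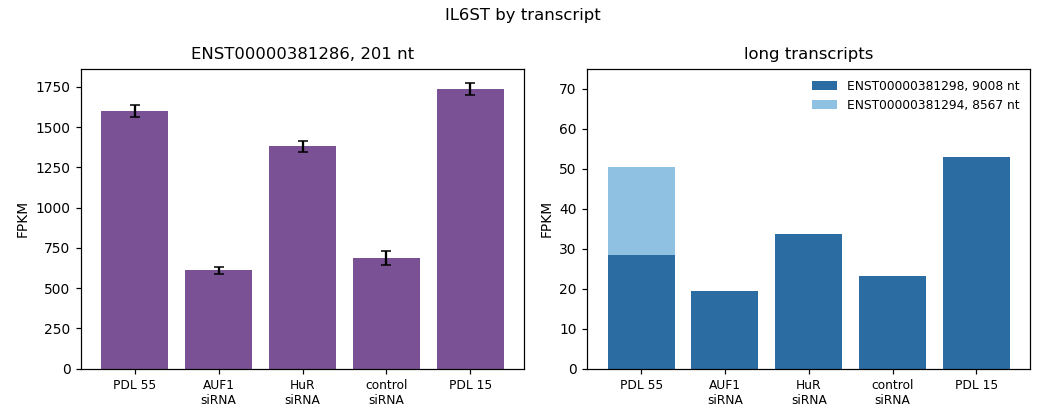
FPKM of the IL6ST transcripts in the 5 libraries, with the 201 nt row and its deposited 95% bounds on the left and the long transcripts stacked on the right. The AUF1 siRNA and control siRNA libraries are lowest in both panels, and ENST00000381294 is seen at PDL 55 alone, at 22.0 FPKM.

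Of the receptors that pair with gp130, CNTFR, the ciliary neurotrophic factor receptor, was under 1 FPKM in all libraries, with 0.190 FPKM at PDL 55 as its highest level. OSMR, the oncostatin M receptor, was at 107 FPKM at PDL 55 and 43.0 FPKM at PDL 15, a log2 ratio of 1.61 that turned to -0.08 on fragment mass (FPKM times length). LIFR, the LIF receptor, was at 4.25 FPKM at PDL 55 and 22.9 FPKM at PDL 15, and its estimate failed with AUF1 siRNA. IL6R, the IL6 receptor, was between 4.90 and 12.1 FPKM, and IL11RA, the IL11 receptor, between 0.927 and 2.62 FPKM. Among the other ligands of the family, CLCF1 was at 4.92 FPKM at PDL 55, 5.92 with AUF1 siRNA, 12.5 with HuR siRNA, 6.33 with control siRNA and 2.37 at PDL 15. SOCS1, a feedback inhibitor of the pathway, was at 0.0711 FPKM at PDL 55 and 4.75 FPKM at PDL 15, a log2 ratio of -2.11, and at 0.675 FPKM with control siRNA. STAT3, the transcription factor downstream of gp130, stayed between 10.0 and 14.5 FPKM.

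ICAM1 (ENSG00000090339, hg19 chromosome 19, 10381517 to 10397291), a ligand of leukocyte integrins of the beta-2 type, was at 1.72 FPKM at PDL 55 (1.30 to 2.14), 13.03 with AUF1 siRNA (11.8 to 14.2), 9.19 with HuR siRNA (8.21 to 10.2), 0.607 with control siRNA (0.209 to 1.01) and 19.5 at PDL 15 (17.9 to 21.1). PDL 55 and control siRNA were low, and the other 3 libraries were high with no overlap. Assembled transcripts added 1.64 FPKM at PDL 55, 9.31 with AUF1 siRNA, 5.10 with HuR siRNA, 4.63 with control siRNA and 0 at PDL 15. With them the order was 22.3 FPKM with AUF1 siRNA, 19.5 at PDL 15, 14.3 with HuR siRNA, 5.23 with control siRNA and 3.36 at PDL 55. The log2 ratio of PDL 55 to PDL 15 relative to the median gene was -2.61, or -1.93 with assembled transcripts. AUF1 siRNA against control siRNA was at 2.95, or 1.72 with assembled transcripts, and HuR siRNA against control siRNA at 2.37, or 0.99. Neither of these libraries was above PDL 15 by 2-fold, with ratios to that library of -0.35 for AUF1 siRNA and -0.94 for HuR siRNA. The control siRNA library itself was at -3.27 against PDL 15 and rests on 592 aligned bases. Apart from the control siRNA library, where it was at 0, ENST00000423829 (1296 nt) held most of the annotated level, and its status was LOWDATA in all libraries but PDL 15.

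VCAM1 (ENSG00000162692, hg19 chromosome 1, 101185305 to 101204601), the ligand of the integrin made of ITGA4 and ITGB1, was over 1 FPKM at PDL 15 alone. It was at 0.541 FPKM at PDL 55 (0.355 to 0.726), 0.208 with AUF1 siRNA (0.0840 to 0.333), 0.856 with HuR siRNA (0.509 to 1.20), 0.325 with control siRNA (0.0595 to 0.589) and 3.97 at PDL 15 (3.27 to 4.66). The PDL 15 library lies above the other 4 with no overlap, and those 4 partly overlap each other. PDL 55 against PDL 15 had a log2 ratio relative to the median gene of -1.38, and control siRNA against PDL 15 one of -1.50. With control siRNA as the reference the PDL 55 ratio was 0.18. The ratios to control siRNA were -0.31 for AUF1 siRNA and 0.19 for HuR siRNA. ICAM1 and VCAM1 are also expressed by endothelium, whose markers summed to 5.68 FPKM at PDL 55, 4.71 with AUF1 siRNA, 11.4 with HuR siRNA, 8.97 with control siRNA and 14.6 at PDL 15, with 2 of the 6 at 0 at PDL 15, CDH5 and SELE. TEK held most of that sum, at 4.91 FPKM at PDL 55 and 13.9 FPKM at PDL 15. The part of such cells in the result was not tested.

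The promoters of IL6, VCAM1 and ICAM1 are shown because these 3 genes were all more than 2-fold lower with control siRNA than at PDL 15. RefSeq sequences (GRCh38.p14, 250 bases before to 50 after the start) were matched for 7 of the 10 genes, CXCL1, CXCL12, ICAM1, IL11, IL6, IL6ST and VCAM1. The kappa-B consensus, the sequence NF-kB binds, searched on both strands, was present in 4 of them, CXCL1, IL6, IL6ST and VCAM1, against 11.3% of 35116 promoters of that length. The match began 73 bases before the start in IL6, 62 in VCAM1, 79 in CXCL1 and 53 in IL6ST. Each promoter reads 5′ to 3′ on the strand of its gene, with the kappa-B match in capitals.
IL6 promoter, chr7:22726950-22727249, + strand: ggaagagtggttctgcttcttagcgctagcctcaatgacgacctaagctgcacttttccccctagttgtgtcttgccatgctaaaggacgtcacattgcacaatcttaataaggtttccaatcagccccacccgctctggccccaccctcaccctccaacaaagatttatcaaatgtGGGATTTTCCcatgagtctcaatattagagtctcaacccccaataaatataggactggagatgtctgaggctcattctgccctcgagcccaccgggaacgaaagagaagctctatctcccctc
VCAM1 promoter, chr1:100719492-100719791, + strand: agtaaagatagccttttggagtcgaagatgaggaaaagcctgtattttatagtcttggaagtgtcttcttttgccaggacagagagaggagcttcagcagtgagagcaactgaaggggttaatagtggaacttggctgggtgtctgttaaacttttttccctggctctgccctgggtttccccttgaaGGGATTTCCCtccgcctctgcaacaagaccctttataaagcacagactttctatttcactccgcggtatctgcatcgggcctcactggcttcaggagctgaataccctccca
ICAM1 promoter, chr19:10270870-10271169, + strand: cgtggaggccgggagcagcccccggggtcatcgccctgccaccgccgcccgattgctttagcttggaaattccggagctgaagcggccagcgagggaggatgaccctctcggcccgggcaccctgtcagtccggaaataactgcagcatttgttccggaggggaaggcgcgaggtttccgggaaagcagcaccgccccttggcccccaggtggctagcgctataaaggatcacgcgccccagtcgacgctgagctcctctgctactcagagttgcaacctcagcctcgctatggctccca
ICAM1 has no match in this window to the consensus as searched, GGGRNNYYCC (R is A or G, Y is C or T, N is any base). Its sequence holds tggaaattcc, which departs from that consensus at the first base alone. Near matches were not counted, so a lack of match does not mean that no kappa-B site is present. A match or its absence was not tested against the levels.

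The first comparison, PDL 55 with PDL 15, is one of late and early passage. Of the 7 genes that reached a mean of 1 FPKM, CCL2 was at least 2-fold higher relative to the median gene, as 10.3% of all 13726 genes were. The genes lower by that measure were CXCL12, ICAM1 and VCAM1, 3 of the 7, where 11.2% of all genes were lower. VCAM1 had reached the mean of 1 FPKM through the PDL 15 library alone. IL6, LIF and IL6ST were within 2-fold. Of the 10 fibroblast markers, 1 was higher and 4 lower, with a median of -0.75. The higher marker, PDGFRA, was listed at 0 at PDL 15. The median of the 7 ratios was -0.33, against 0 for all genes by construction. The deposited scaling moved the median gene by -0.31 here, and by 0.18, 0.29, -0.40 and -0.11 in the 4 comparisons that follow, which is why ratios are given relative to it. With control siRNA as the reference, CCL2 was still higher and CXCL12 still lower, IL6 (1.28) and IL6ST (1.18) were higher, and ICAM1 (0.72) and VCAM1 (0.18) were no longer lower. Of all genes, 16.3% were higher and 17.3% lower against that library. The VCAM1 difference at PDL 55 is thus one against the untransfected PDL 15 library. ICAM1 at PDL 55 (1.72 FPKM) was also below AUF1 siRNA (13.03 FPKM) and HuR siRNA (9.19 FPKM), both at PDL 15. It was above control siRNA (0.607 FPKM) on annotated transcripts, but below it with assembled transcripts (3.36 against 5.23 FPKM).

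AUF1 siRNA against control siRNA asks which of these mRNAs differ when AUF1 is reduced. CCL2 (-2.20) and LIF (-1.22) were at least 2-fold lower, 2 of 7 genes, where 12.4% of all genes were lower. LIF had reached the mean of 1 FPKM with control siRNA as its highest library. ICAM1 (2.95) was higher, where 11.3% of all genes were, but stood at -0.86 with only transcripts of status OK in all libraries. That setting leaves out ENST00000423829 everywhere, so it sets 0 FPKM with AUF1 siRNA against 0.607 FPKM with control siRNA. Of the 10 fibroblast markers, 5 were higher and 1 lower, with a median of 1.19. VIM, PDGFRA and PDGFRB, counted as higher, were listed at 0 with control siRNA, where the estimates of VIM and PDGFRA had failed. With assembled transcripts PDGFRB was at 37.3 FPKM with AUF1 siRNA and 16.6 FPKM with control siRNA, under 2-fold relative to the median gene. The remaining ratios were 0.13 for IL6, -0.31 for VCAM1, -0.36 for IL6ST and -0.52 for CXCL12, and the median of the 7 was -0.36. With PDL 15 as the reference 4 genes were lower, CCL2 (-2.22), VCAM1 (-1.84), IL6 (-1.45) and IL6ST (-1.30), and none was higher, where 10.2% of all genes were lower and 10.8% higher. CCL2 was the only 1 of the 7 lower against both libraries.

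The HuR siRNA library was compared with control siRNA in the same way, with the reservation on its target above. ICAM1 (2.37) was higher, where 11.9% of all genes were, and LIF (-1.47) and CXCL12 (-1.03) were lower, where 13% of all genes were. LIF had reached the mean of 1 FPKM with control siRNA as its highest library. CCL2 was at -0.46, IL6ST at 0.69, IL6 at 0.55 and VCAM1 at 0.19, which was also the median of the 7. None of the 3 calls held under every alternative. ICAM1 stood at -0.97 with status OK only, where it was at 0 FPKM with HuR siRNA because ENST00000423829 was left out. Of the 10 fibroblast markers, 6 were higher and 2 lower, with a median of 1.38. VIM, PDGFRA and PDGFRB, counted as higher, were listed at 0 with control siRNA, and COL1A1, counted as lower, at 0 with HuR siRNA. With assembled transcripts the PDGFRB, COL1A2 and THY1 calls were lost, at 35.5, 831 and 121 FPKM with HuR siRNA. Their control siRNA levels were then 16.6, 399 and 173 FPKM. With PDL 15 as the reference IL6 (-1.03), CXCL12 (-1.37) and VCAM1 (-1.35) were lower and none was higher, where 9.52% of all genes were lower and 9.93% higher.

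Control siRNA against PDL 15 compares 2 libraries with no siRNA to a named target. The fibroblast markers differed between them too, with 7 of 10 at least 2-fold lower (COL1A2, COL3A1, DCN, FAP, LUM, PDGFRB and VIM, the last with a failed estimate), 1 higher (THY1) and a median log2 ratio of -1.70, and their part in the results was not tested. With assembled transcripts the PDGFRB and COL1A2 calls were lost, at 16.6 and 399 FPKM with control siRNA and 23.8 and 816 FPKM at PDL 15. THY1, listed at 0 at PDL 15 on annotated transcripts, was then at 173 FPKM with control siRNA and 54.6 FPKM at PDL 15. IL6 (-1.55), ICAM1 (-3.27) and VCAM1 (-1.50) were at least 2-fold lower, 3 of 7 genes, where 12.6% of all genes were lower. None was higher, where 15.1% of all genes were. VCAM1 had reached the mean of 1 FPKM through the PDL 15 library alone. CCL2 was at 0.01. CXCL12 was at -0.31, with bounds that did not overlap, and at -1.35 with 1 transcript per gene. The median of the 7 was -0.92. AUF1 siRNA was also compared with HuR siRNA directly. CCL2 (-1.74) and IL6ST (-1.06) were lower with AUF1 siRNA, where 7.23% of all genes were, and none was higher, where 7.3% were. The median of the 7 was -0.43. These 5 comparisons share libraries, so their ratios are not independent of each other.

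**Figure D4:**
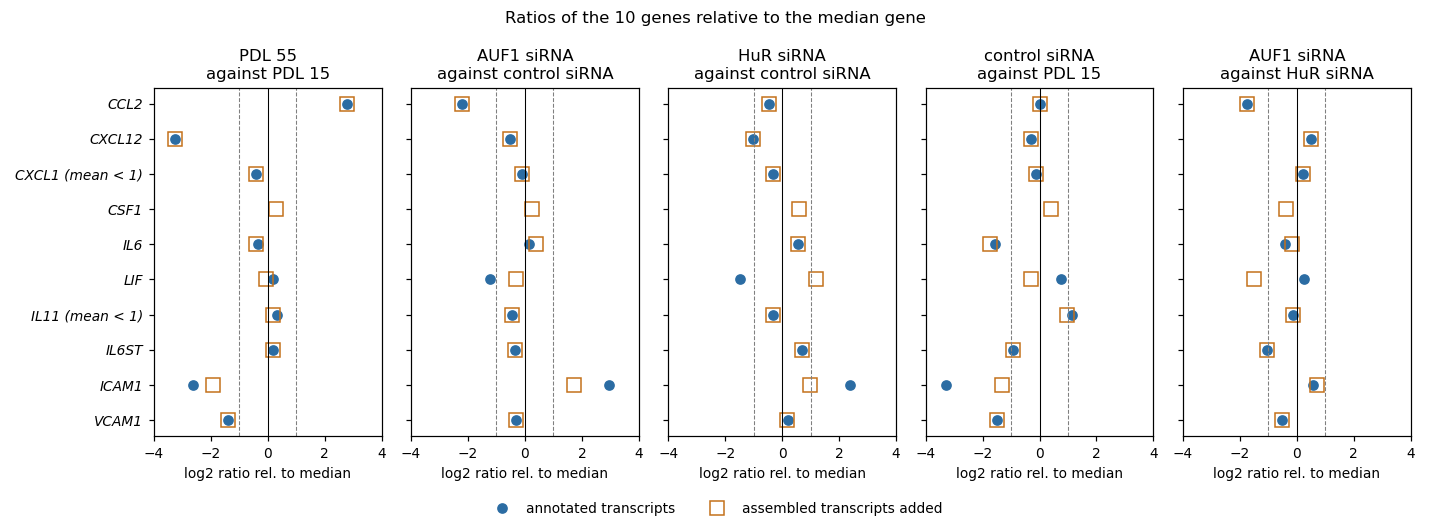
Log2 ratios of the 10 genes relative to the median gene in the 5 comparisons, on annotated transcripts (blue) and with assembled transcripts added (orange squares). Dashed lines mark 2-fold, and CSF1 has no blue point because its annotated transcripts are at 0. LIF under HuR siRNA changes side, at -1.47 and 1.18. CCL2, CXCL12, IL6ST and VCAM1 have no assembled level, so their points could move only with the median gene.

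Of the other cytokine, receptor and adhesion genes on the fixed lists, 29 reached a mean of 1 FPKM, and 3 of these, CD44, ITGB1 and LIFR, had a failed estimate in some library. CD44 and ITGB1 were listed at 0 both at PDL 55 and with AUF1 siRNA, with status FAIL for the transcripts that otherwise hold their reads, so no direction is given for them. Of the 26 genes without a failure, 4 were higher and 3 lower at PDL 55 than at PDL 15, with a median of -0.01. The higher ones were OSMR, CLCF1, the adhesion gene CADM1 (179 against 73.1 FPKM, log2 ratio 1.59) and MCAM (0.780 against 0 FPKM). The lower ones were SOCS1, the interleukin 1 receptor IL1R1 (3.94 against 17.6 FPKM) and the tumour necrosis factor receptor TNFRSF1B (0.252 against 2.38 FPKM). AUF1 siRNA against control siRNA had 3 higher, JAK1, MCAM and TNFRSF1B (4.87 against 1.52 FPKM), and 0 lower. With assembled transcripts TNFRSF1B was at 4.87 FPKM with AUF1 siRNA and 3.95 FPKM with control siRNA, a log2 ratio of 0.06, so that call was lost. HuR siRNA against control siRNA had 4 higher, ALCAM (178 against 68.7 FPKM), JAK1, MCAM (16.6 against 0 FPKM) and TNFRSF1A (264 against 94.8 FPKM), and 0 lower. Control siRNA against PDL 15 had 2 higher, CLCF1 (log2 ratio 1.52) and IL1RAP (1.30), and JAK1 (-1.43) and SOCS1 (-1.37) were lower. JAK1, a kinase that gp130 uses, was at 6.97 FPKM with control siRNA on annotated transcripts and 27.4 at PDL 15, and its ratio of control siRNA to PDL 15 turned to 0.41 with assembled transcripts, as its ratios to control siRNA turned to -0.68 for AUF1 siRNA and -0.60 for HuR siRNA. MCAM was at 0 with control siRNA and at PDL 15 on annotated transcripts only, since assembled ones gave it 5.17 FPKM with control siRNA and 2.70 FPKM at PDL 15. AUF1 siRNA against HuR siRNA had 2 lower, MCAM and TNFRSF1A, and 0 higher. With assembled transcripts MCAM was at 10.5 FPKM with AUF1 siRNA and 16.6 FPKM with HuR siRNA, and TNFRSF1A at 156 and 264 FPKM. Neither call held on that count, and the MCAM call for AUF1 siRNA against control siRNA was lost too.

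Likeness of pattern was measured for the 4 genes with a mean of at least 5 FPKM, as the distance between profiles of log2(FPKM + 1) over the 5 libraries, among 6608 protein-coding genes. The nearest to CCL2 were FGF13 (distance 1.32) and DCBLD2 (1.42), which were at 76.2 and 1119 FPKM at PDL 55 and at 4.82 and 44.1 FPKM with AUF1 siRNA. GABRB1 (0.41) and MDK (0.70) were nearest to CXCL12. FBLN2 (0.41) and RNPEPL1 (1.02) were nearest to ICAM1, with FBLN2 at 1.15 FPKM at PDL 55, 0.3996 with control siRNA and 13.4 at PDL 15. ARL1 (0.14) and PFDN5 (0.26) were nearest to IL6ST. With 5 points a profile, many genes lie close by, and this is a description only.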

How the data were processed

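Total RNA of 5 WI-38 libraries was amplified with NuGEN Ovation RNA-Seq reagents and sequenced on an Illumina Genome Analyzer, per the labels' protocols. The submitters' processing notes name TopHat2 2.0.6, Cufflinks 2.0.2, Cuffdiff and hg19, and the annotation release is not given in the sources used here. The authors deposited an FPKM value per transcript with 95% bounds and a status, per the file headers. Coverage, a signal of read depth per base, was deposited beside it.

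Annotated transcripts were assigned to genes with GENCODE release 29, by transcript identifier for 85.3% and by a shared gene identifier for others, 98.2% in all of 160485. Their FPKM was summed per gene and the bounds were summed likewise, so they are wider than a true interval for the gene. Small RNA genes were left out. Transcripts assembled from the reads were added to a gene only in an alternative, by gene identifier or by position (at least 50% of the span in 1 gene and under 10% elsewhere). Ratios are log2((FPKM + 1)/(FPKM + 1)) minus the median over the 13726 genes whose mean reached 1 FPKM, and a gene counts as higher or lower from a 2-fold difference on that scale. That scale understates differences of genes at low levels. Depth in reads is unknown, so the coverage times length is given as aligned bases. With 1 library a group there is no test and no p-value, and replicates could not be compared. The calculation was tested on simulated data. The alternatives tried were a pseudocount of 0.1, no filter, a mean FPKM of at least 5, the deposited scaling, 1 transcript per gene, assembled transcripts added, status OK only, fragment mass (FPKM times length, rescaled), another reference library, transcripts of 300 nt and over, and genes with a FAIL status left out. The last 2 were chosen after seeing the data. Status OK only keeps the transcripts whose status was OK in all 5 libraries.

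All 10 genes are described. Of the other genes on the cytokine, receptor and adhesion lists, the rule names up to 3 highest and 3 lowest ratios past 2-fold in each comparison. Where the mean reached 5 FPKM it names the 2 protein-coding genes with the nearest profile. Other genes given with values were chosen after their values were seen. Some list results are not reported here. The genes and lists were chosen with earlier results of these data known. Python 3.11.15, pandas 2.3.3, numpy 2.4.6 and matplotlib 3.10.9 were used.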

Additional observations from a re-analysis of the deposited data

Results flagged for a closer look

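Signal in assembled transcripts, which the sums over annotated transcripts do not use, was above the level in the matching control library for 3 of the 10 genes, at 1 FPKM or more and with bounds that did not overlap. For LIF it was 1.32 FPKM with AUF1 siRNA and 7.09 with HuR siRNA, against 0 with control siRNA. For CSF1 it was 8.95 FPKM with AUF1 siRNA and 12.9 with HuR siRNA, against 6.44 with control siRNA. For ICAM1 it was 9.31 FPKM with AUF1 siRNA against 4.63 with control siRNA, and 1.64 at PDL 55 against 0 at PDL 15. The share of all genes with such a rise is not given here, so the 3 genes are not set apart from others by it. How far the assembly itself differed between libraries was not tested, and the number of assembled transcripts over all genes was 7100 with control siRNA and 14061 to 19116 in the other libraries.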

How the results depend on the processing

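Each group has 1 library, so no replicate could be left out. No paired analysis was possible because each group has 1 library and no result comes from a test. The 15 calls of single genes past 2-fold all held with a pseudocount of 0.1 and with genes of status FAIL left out, 14 held on the deposited scaling, with no filter and with transcripts of 300 nt and over, 13 on fragment mass and with 1 transcript per gene, 12 with assembled transcripts and with status OK only, and 10 at a mean FPKM of at least 5, where IL6, LIF and VCAM1 drop out by construction. No transcript of the 10 genes had status FAIL, so leaving such genes out could only shift the median gene. The ratios with no filter equalled those on the deposited scaling. CCL2, CXCL12, IL6ST and VCAM1 had no assembled level, so adding assembled transcripts could change their ratios only through the median gene. Counts of genes that moved by over 1.5 times follow. At PDL 55 against PDL 15, 1 gene was higher and 3 were lower, but 3 and 1 with control siRNA as the reference. For AUF1 siRNA against control siRNA, the 1 higher gene became 0 with status OK only and with PDL 15 as the reference. The 2 lower genes became 1 at a mean FPKM of at least 5 and with assembled transcripts, and 4 with PDL 15 as the reference. For HuR siRNA, the 1 higher gene became 2 with a pseudocount of 0.1, and 0 with status OK only and with PDL 15 as the reference. The 2 lower genes became 1 with no filter, at a mean FPKM of at least 5, on the deposited scaling, with 1 transcript per gene, with assembled transcripts and on fragment mass. For control siRNA against PDL 15, the 0 higher became 1 on fragment mass, where IL11 passed the filter, and the 3 lower became 1 at a mean FPKM of at least 5. For AUF1 siRNA against HuR siRNA, the 2 lower became 1 on fragment mass and with transcripts of 300 nt and over.

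Of the ratios past 2-fold, these changed direction, and apart from ICAM1 with status OK only the cause was not tested. LIF under HuR siRNA was at -1.47 and turned to 1.18 with assembled transcripts. ICAM1 turned to 0.72 at PDL 55 with control siRNA as the reference, to -0.86 (AUF1 siRNA) and -0.97 (HuR siRNA) with status OK only, and to -0.35 and -0.94 with PDL 15 as the reference. With status OK only, ENST00000423829 is left out, and no ICAM1 level remains with AUF1 siRNA or HuR siRNA. VCAM1 at PDL 55 turned to 0.18 with control siRNA as the reference. Among the other genes, JAK1 turned to -0.68 (AUF1 siRNA), -0.60 (HuR siRNA) and 0.41 (control siRNA against PDL 15) with assembled transcripts, and to -0.29 and -0.22 under AUF1 siRNA and HuR siRNA with PDL 15 as the reference. ITGB1 under HuR siRNA turned to -0.0376 with that reference, OSMR at PDL 55 to -0.0791 on fragment mass, and MCAM under AUF1 siRNA to -0.24 with 1 transcript per gene. Some ratios within 2-fold also changed sign, among them CXCL12 under AUF1 siRNA (-0.52, and 0.74 with 1 transcript per gene), IL6ST under HuR siRNA (0.69, and -0.27 with PDL 15 as the reference), IL6 under AUF1 siRNA (0.13, and -1.45 with that reference), and IL6 at PDL 55 (-0.33, and 1.28 with control siRNA as the reference). Depth limits CXCL1, IL6 and VCAM1 in the control siRNA library most, at 118, 110 and 226 aligned bases.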
